A study of Mus musculus with 9 samples.

Results

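Fatty acid oxidation and ketogenesis were followed through 32 genes, chosen by name for the enzymes, carriers and electron acceptors of these pathways. All 32 names were found among the 33732 gene names of the deposited exon table. RNA immunoprecipitation followed by sequencing (RIP-seq) recovers the RNA that comes down with a protein, and the study used it to ask which RNAs HuR holds in mouse liver. HuR is an RNA-binding protein encoded by Elavl1 and known for binding U-rich and AU-rich stretches, often in 3′ untranslated regions (3′ UTRs). The groups were HuR RIP with 3 libraries, control IgG RIP with 3 libraries, and Input, the RNA of the lysate, with 3 libraries of which the table gives only the authors' mean. All mice were C57BL/6 WT animals at 8 weeks of age, the tissue was whole healthy liver, and each pull-down took a single liver under native conditions. The IgG pull-down is the only control for carry-over, since no group lacks HuR. Native pull-down of whole tissue also mixes the RNA of all liver cell types.

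Hepatocytes burn fatty acids in mitochondria and, for very long and branched chains, in peroxisomes. A fatty acid is first activated to its CoA ester, then carried into the mitochondrion as a carnitine ester, then shortened in repeated rounds by a dehydrogenase, a hydratase, a second dehydrogenase and a thiolase. The acetyl-CoA that results feeds the citric acid cycle or, in the fasting liver, is turned into ketone bodies for other organs.

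Behind the values stood 26.3 to 26.9 M reads (M, mega) per HuR library, while the IgG libraries held 15.9 M (IgG 1), 26.7 M (IgG 2) and 28.8 M (IgG 3), and the share of them in listed exons ranged from 27.9% in HuR 2 to 60.5% in HuR 3. Levels are RPKM, reads per kilobase of exon, scaled to library size, per gene unless an exon is named. Reads are not independent molecules, so depth covers counting error only. Values of 3 libraries are always given in the order 1, 2, 3. The median log2 level of tested genes was 1.33, 1.32 and 1.03 for HuR RIP and 0.87, -0.17 and -0.33 for IgG RIP, so IgG 1 stood nearer to HuR RIP than the other controls did. Coverage was thin. Of the 338 exons of the 29 tested members, 87, 133 and 134 had reads across HuR libraries 1 to 3, and 157, 143 and 59 had reads across IgG libraries 1 to 3. Of the 10 hepatocyte markers, all 10 were tested, and their summed level was 1058 to 1108 RPKM in the HuR pull-downs and 328 to 856 RPKM in the IgG pull-downs. Markers of other cells were present as well. Summed levels were 17.3 to 30.5 RPKM in the HuR pull-downs and 5.60 to 35.3 RPKM in the IgG pull-downs for 12 Kupffer cell and macrophage markers, of which Cd68 was listed at 0 in all IgG libraries. For 10 endothelial markers they were 8.94 to 16.2 and 1.58 to 7.22 RPKM in HuR and IgG RIP, with Lyve1 listed at 0 in all IgG libraries. The 8 stellate cell markers summed to 4.48 to 16.1 RPKM in the HuR pull-downs and 0.876 to 6.00 RPKM in the IgG pull-downs. The 6 cholangiocyte markers summed to 3.78 to 13.1 RPKM in the HuR pull-downs and 0.0467 to 0.684 RPKM in the IgG pull-downs. The 6 erythroid markers summed to 64.5 to 171.9 RPKM in the HuR pull-downs and 98.7 to 234.4 RPKM in the IgG pull-downs. The 5 adipocyte markers in the table summed to at most 2.13 RPKM in the HuR pull-downs and 0.0658 RPKM in the IgG pull-downs, with Retn listed at 0 in all 6 libraries. Fewer cells of a type and less RNA per cell cannot be told apart in whole tissue, and the part of these markers in the results was not tested. None of them passed the gene-level test described next.

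The letter at the end of a column header, M or F, went against the sex-linked transcripts in 2 libraries of the same group. The library labelled HuR 2 (M) had Xist at 10.15 RPKM and Eif2s3y at 0, and the library labelled HuR 3 (F) had Eif2s3y at 0.868 RPKM and Xist at 0.463 RPKM. Both belong to HuR RIP, so an exchange of these 2 libraries would leave the comparison of groups untouched. The cause of the mismatch was not tested. Their replicate numbers are in doubt, as is any result that uses them.

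At the level of whole genes, most members, like most tested genes, were higher in HuR RIP than in IgG RIP. None of the members passed the test. The 2 groups were compared by limma on log2(RPKM + 0.5), two-sided, with Benjamini-Hochberg adjustment over all 5510 genes at or above 0.5 RPKM in at least 3 of the 6 RIP libraries. Of the members, 29 passed that filter, and Etfdh, Crat and Acot1 stayed below it. Of the 29, 0 were past an adjusted p of 0.05, where 0.672% of all tested genes were called higher and 0.127% lower. Without adjustment, 14 of 29 were higher at p under 0.05, beside 27.9% of all tested genes, and 0 were lower, beside 3.19%. Every fold change and ratio difference is given on this log2 scale, which understates the change of low genes. The members' median log2 fold change was 1.28, beside 0.92 over all tested genes. The fold change was above 0 in 26 of the 29, beside 79.1% of all tested genes, and above the median of all genes in 21, beside 50.0%. All 29 are protein-coding. Of the 3943 protein-coding genes tested, 3566 were above 0, about the same share as among the members. Their median was 1.08, nearer to that of the members than the median of all tested genes. In 14 of the 29 the lowest HuR library was above the highest IgG library, beside 31.3% of all tested genes, and the reverse held for 0 of them, beside 3.48%. The filter can be met by HuR libraries alone, as in Acat1 and Acot2, which favours such gaps and fold changes above 0. The members' median stayed above 0 when the libraries were rescaled, at 0.40 with TMM-like factors, 0.17 with libraries centred at their medians and 0.31 with quantile normalization. The medians of all tested genes under those scalings were 0.09, -0.18 and 0.05. The count of 0 rose to 7 members without IgG 1, where 741 tested genes were called in all. It rose to 5 members with a filter at 1 RPKM, where 166 genes were called in all.

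**Figure D1:**
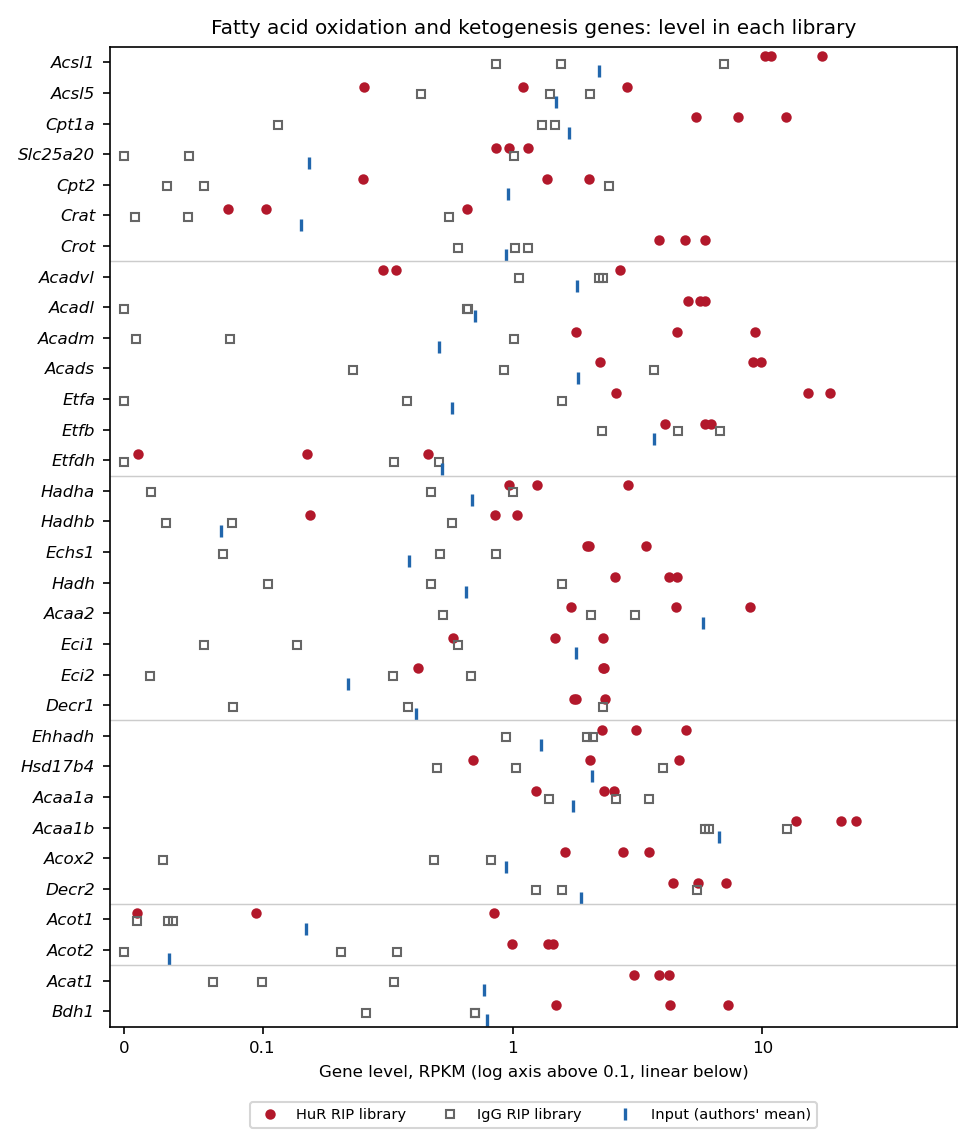
Gene level of the 32 members in RPKM (horizontal axis, logarithmic above 0.1 and linear below) in the 3 HuR RIP libraries (filled circles), the 3 IgG RIP libraries (open squares) and the Input mean (bars), grouped by role from activation and carnitine transport at the top to ketone bodies at the bottom. The HuR libraries of Acadl sit between 5.02 and 5.89 RPKM, above IgG libraries at 0 to 0.666 RPKM, while those of Acsl5 and Acadvl overlap their IgG libraries.

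The reads of the members did not lie evenly along the genes. In HuR RIP they collected on the terminal exon, the 3′ most exon, which holds most or all of the 3′ UTR. HuR 2 showed this least. Over the 29 tested members together, the terminal exons took 77.8%, 60.6% and 85.6% of reads across HuR libraries 1 to 3, and 48.8%, 31.5% and 32.7% across IgG libraries 1 to 3. The median level of a member's terminal exon was 6.15, 5.72 and 10.4 RPKM across HuR libraries 1 to 3, and 1.88, 0.636 and 0 RPKM across IgG libraries 1 to 3. The median level over the other exons was 0.515, 2.26 and 0.273 RPKM with HuR and 0.894, 0.532 and 0.133 RPKM with IgG. Groups thus stood apart on the terminal exon and overlapped on the rest of the gene. The terminal exon had no reads in 1, 1 and 0 of the 29 members across HuR libraries 1 to 3, against 4, 6 and 15 of them across IgG libraries 1 to 3. The plot of terminal shares by library sets the members beside all tested genes, whose median shares were higher in every library, at 88.2%, 70.7% and 88.3% with HuR and 53.6%, 44.4% and 30.03% with IgG.

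**Figure D2:**
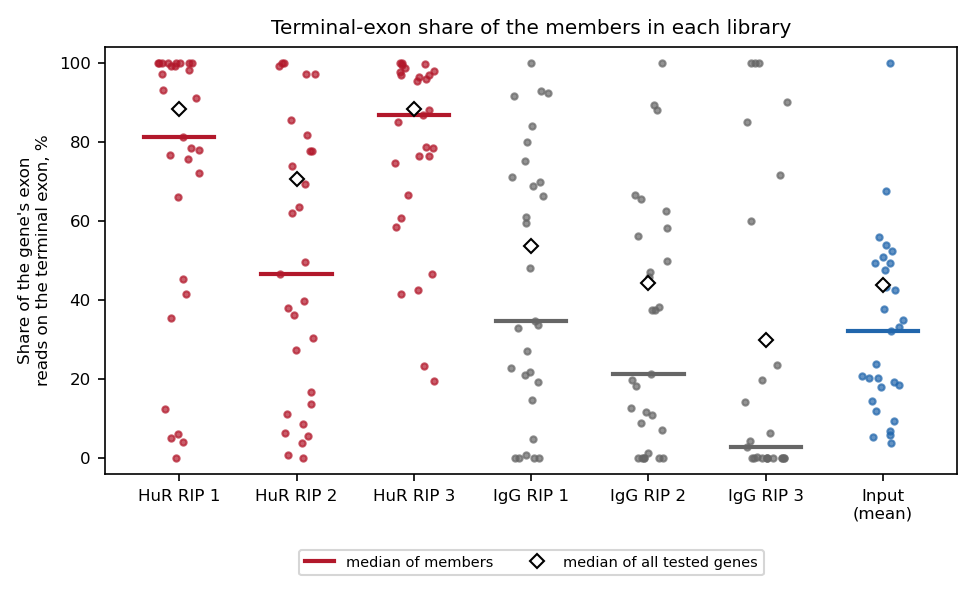
Share of each tested member's exon reads that lay on its terminal exon, in percent, for the HuR RIP libraries, the IgG RIP libraries and the Input mean; points are members, horizontal lines their median and diamonds the median of all 3621 genes tested. Medians of the members were 81.2%, 46.7% and 86.8% across HuR libraries 1 to 3, and 34.8%, 21.4% and 2.80% across IgG libraries 1 to 3.

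The log2 ratio of the terminal exon to the other exons, each with 0.5 RPKM added, was then compared between HuR RIP and IgG RIP by limma over the 3621 tested genes with at least 3 exons, with Benjamini-Hochberg adjustment. Etfa, Acads, Hsd17b4, Acadl, Cpt1a, Acadm and Acaa1b rose, so 7 of 29 members passed, beside 6.24% of all tested genes. None of the 29 fell, beside 0.0276% of all. Without adjustment, at p under 0.05, 13 of the 29 members were higher, beside 31.0%, and 0 lower, beside 0.414%. The members' median difference was 1.91 on the log2 scale, beside 1.37 over all tested genes, and 22 of the 29 lay above the median of all genes, beside 50.0%. The tilt to the 3′ end was thus general among tested genes. All 7 calls were lost when any one of HuR 1, HuR 3, IgG 1, IgG 2 or IgG 3 was left out, in fits with fewer samples. Without HuR 2, 9 members passed, and 535 tested genes were called in all. The 7 calls were also lost with a pseudocount of 0.1, where the members' median difference was 2.71. Among the marker lists, 4 of 10 hepatocyte markers and 1 of 2 tested cholangiocyte markers, Spp1, passed the same test, and 0 of the tested Kupffer cell, endothelial, stellate cell and erythroid markers.

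The same split can be shown as 2 fits, both chosen after the values had been seen. With the terminal exon alone, 12 members rose in HuR RIP by limma at a Benjamini-Hochberg adjusted p under 0.05, beside 17.8% of all tested genes. They were the 7 named above and Acat1, Acox2, Acsl1, Crot and Hadh. The median of the members was 2.41 and that of all tested genes 1.59 on the log2 scale, and 0 members passed after libraries had been centred at their medians. With the terminal exon left out, limma called 0 of the 29 members (0% of all tested genes in either direction), 1 member was higher without adjustment at p under 0.05, beside 3.98%, 0 were lower, beside 1.55%, and the members' median was 0.24 beside 0.20. On the terminal exon alone, 17 of 29 members had every HuR library above every IgG library, beside 44.4% of all tested genes. These genes had passed the same filter, which HuR libraries alone can meet.

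**Figure D3:**
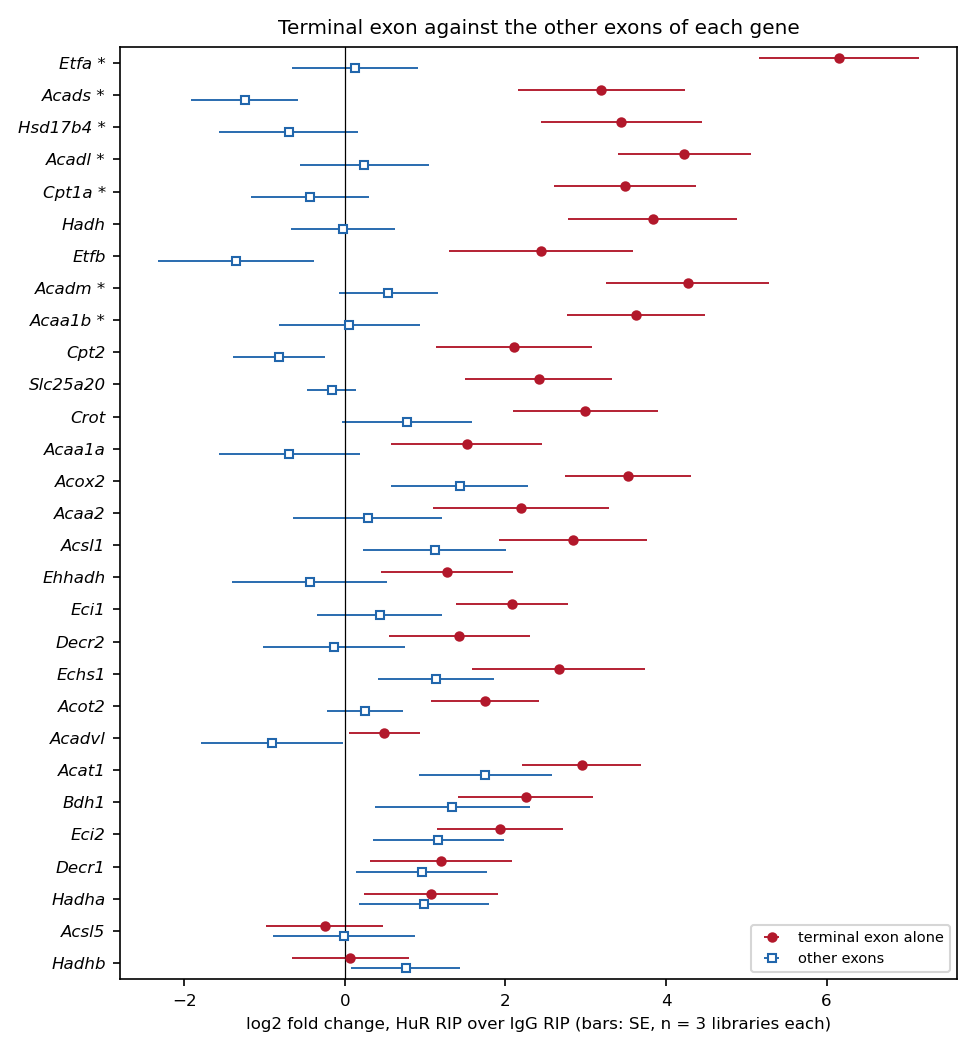
log2 fold change of HuR RIP over IgG RIP (horizontal axis, with SE, n = 3 libraries each) for the terminal exon alone (circles) and for the other exons (squares) of the 29 tested members, ordered by the difference; asterisks mark the 7 members past the threshold in the test of that difference. Etfa is at the top with 6.15 on the terminal exon and 0.13 on the other exons, and Hadhb at the bottom with 0.07 and 0.76.

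The terminal exons called in the ratio test differ in sequence. For 6 of the 7, and for Acot2 and Decr2, the members with the highest T counts in such a window, which did not pass, the 30 bases of the 3′ UTR with the most T are given below as the transcript strand of GENCODE M21 (GRCm38, also called mm10), with runs of 3 or more T in capitals (T stands for U in the RNA). They lie at chr9:55454579-55454608 (Etfa), chr5:115110730-115110759 (Acads), chr1:66831136-66831165 (Acadl), chr19:3385095-3385124 (Cpt1a), chr3:153922490-153922519 (Acadm), chr9:119148025-119148054 (Acaa1b), chr12:83993222-83993251 (Acot2) and chr17:26081614-26081643 (Decr2). Cpt1a and Acot2 are on the plus strand and the other 6 on the minus strand.
Etfa: ttattatattccTTTTTaaTTTTTTgtggt
Acads: ttgccTTTcattctgcctgttctgctccgt
Acadl: TTTTaatgtcttacttgtcTTTcaaattct
Cpt1a: tcttcgtgTTTTaaatcatgtaTTTaTTTT
Acadm: TTTTataaTTTTgattataTTTgcTTTgtt
Acaa1b: tgggtgaactgatcttggttgcagtcaTTT
Acot2: TTTTTTTcTTTTcTTTTTTTTTTTTTTTTT
Decr2: gTTTTTTTTTTTTTgTTTTTTgTTTTTTct
T made up 20 of the 30 bases in Etfa and Acadm, 18 in Cpt1a, 17 in Acadl, 14 in Acads and 12 in Acaa1b, against 28 in Acot2 and 26 in Decr2. The median over all members was 17 and that over all tested genes 18. Of the 7 called members, Acadl, Acads and Acaa1b lay below the median of all tested genes, and Hsd17b4, not shown, had 18.

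The 3′ UTRs of the members were short. Their median length was 598.5 bases over 32 members, beside 1114.5 bases over 3580 tested genes, and they ranged from 60 bases in Etfb to 2107 bases in Crat. The motif ATTTA was found on the transcript strand in 13 of 32 members, or 40.6%, beside 67.9% of the tested genes. TTTTTTT was found in 40.6% of members, beside 45.0% of tested genes, TTTATTT in 25.0% beside 40.0%, and TATTTAT in 6.25% beside 26.4%. TATTTAT holds ATTTA within it, so these counts overlap. Neither these shares nor the T counts above were adjusted for length, and a shorter 3′ UTR has less room for a motif. Of the 7 members past the threshold, 1 held TTTTTTT, 2 held TTTATTT and 3 held ATTTA. Among these 7, the 3′ UTRs of Etfa, Acads and Hsd17b4 held none of the 4 motifs. A motif in these letters is a description of the sequence and not a binding site.

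Activation and carnitine transport come first in the pathway. Acsl1, the main long-chain acyl-CoA synthetase of liver, was at 17.3, 10.8 and 10.2 RPKM across HuR libraries 1 to 3, against 7.02, 1.57 and 0.862 RPKM across IgG libraries 1 to 3, and 2.21 RPKM in the Input mean. The groups did not overlap, but IgG 1 lay much closer to the HuR libraries than did the other IgG libraries. Its log2 fold change was 2.22 (SE 0.86, limma adjusted p = 0.102). The terminal exon alone rose by 2.85 (SE 0.92, limma adjusted p = 0.0459), on 3840, 2272 and 2495 reads in the HuR libraries against 861, 161 and 217 reads in the IgG libraries. Acsl5, another long-chain acyl-CoA synthetase, had overlapping groups, with 0.254, 2.87 and 1.10 RPKM across HuR libraries 1 to 3 and 2.04, 0.431 and 1.41 RPKM across IgG libraries 1 to 3. Its terminal exon held 6.12% to 19.6% of its reads in the HuR pull-downs and 9.01% to 21.2% in IgG RIP.

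Cpt1a encodes the carnitine palmitoyltransferase of the outer mitochondrial membrane, the rate-limiting step of entry. It was at 5.43, 12.4 and 7.98 RPKM across HuR libraries 1 to 3, against 1.48, 1.31 and 0.115 RPKM across IgG libraries 1 to 3. Every HuR library was above the Input mean of 1.68 RPKM and every IgG library below it. The gene-level log2 fold change of 2.73 (SE 0.79) had an adjusted p of 0.0659 by limma. On the terminal exon, at chr19:3383755-3385732, 593, 1337 and 905 reads were counted across HuR libraries 1 to 3, against 59, 86 and 14 reads across IgG libraries 1 to 3. The other 17 exons together had 18, 40 and 2 reads in the HuR libraries, and 40, 62 and 0 reads in the IgG libraries. The ratio of terminal to other exons rose by 3.93 on the log2 scale (SE 0.80, limma adjusted p = 0.0376). In the exon-by-exon plot each HuR library peaks at the last exon, at 11.3, 25.7 and 17.0 RPKM. Most other exons are at 0 in HuR RIP, and the few reads there lie on different exons in each library.

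**Figure D4:**
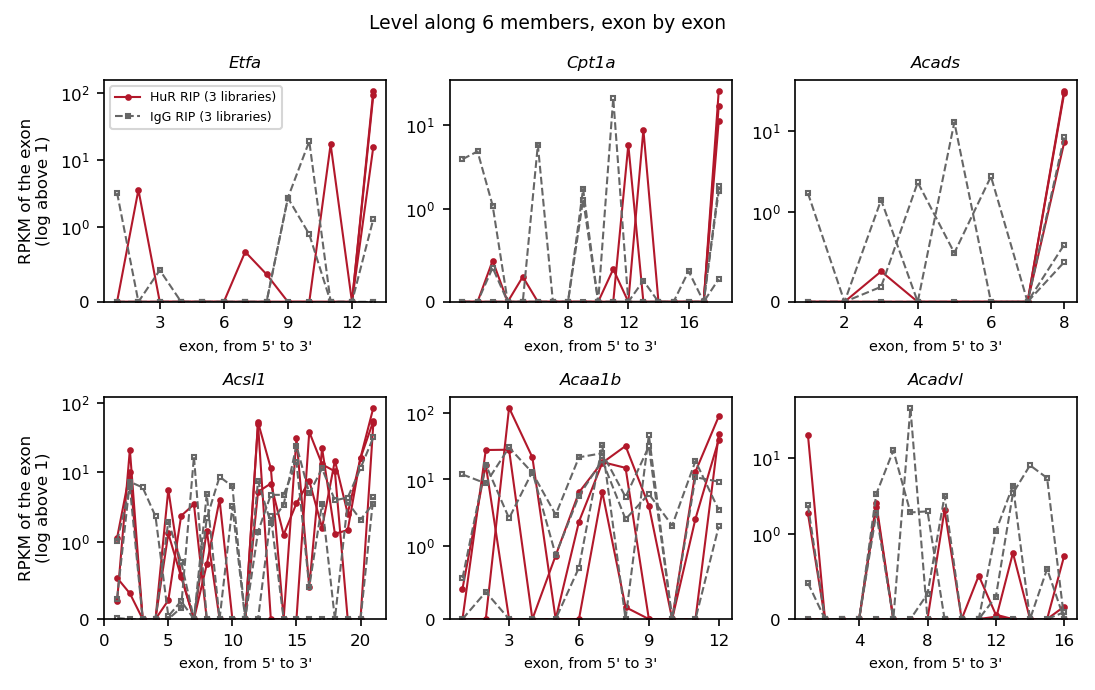
Level of each exon in RPKM (vertical axis, logarithmic above 1 and linear below) from the 5′ to the 3′ end of 6 members, with a line for each HuR RIP library (solid) and each IgG RIP library (dashed). In Etfa, Cpt1a and Acads the HuR libraries peak together at the last exon, in Acsl1 and Acaa1b they also carry reads on internal exons, and in Acadvl no library peaks at the last exon.

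The carrier and the inner membrane transferase were thinly covered. Slc25a20, the carnitine and acylcarnitine exchanger, was at 0.858, 0.971 and 1.15 RPKM across HuR libraries 1 to 3 and at 1.02, 0.0472 and 0 RPKM across IgG libraries 1 to 3, so that IgG 1 lay among the HuR libraries. Its log2 fold change of 1.0 turned to -0.10 when libraries were centred. Cpt2, which returns acylcarnitine to acyl-CoA, was at 0.251, 2.02 and 1.37 RPKM in the HuR pull-downs and 2.43, 0.0314 and 0.0580 RPKM in the IgG pull-downs, with the highest value in IgG 1. Its log2 fold change of 0.68 turned negative under centring and quantile normalization. Crot, the carnitine octanoyltransferase of peroxisomes, was at 5.91, 3.84 and 4.90 RPKM across HuR libraries 1 to 3 and at 1.16, 0.605 and 1.02 RPKM across IgG libraries 1 to 3. These groups did not overlap, and the terminal exon alone rose by 2.99 (SE 0.90, limma adjusted p = 0.0386). Crat, carnitine acetyltransferase, stayed below the filter, with at most 0.656 RPKM in the HuR pull-downs and 0.559 RPKM in the IgG pull-downs.

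Among the acyl-CoA dehydrogenases, which open each round of oxidation and differ in the chain length they take, those for long, medium and short chains passed the terminal ratio test and that for very long chains did not. The difference between them was not tested. Acadl, the long-chain enzyme, was at 5.61, 5.89 and 5.02 RPKM across HuR libraries 1 to 3, against 0.658, 0.666 and 0 RPKM across IgG libraries 1 to 3. It was among the members with the closest HuR libraries, and its log2 fold change of 2.77 (SE 0.75) had an adjusted p of 0.0566 by limma. Its terminal exon had 286, 206 and 250 reads in the HuR pull-downs against 1, 16 and 0 reads in the IgG pull-downs, and the ratio to the other exons rose by 3.99 (SE 0.97, limma adjusted p = 0.0423). The other exons had 0, 91 and 9 reads with HuR, and 19, 18 and 0 reads with IgG.

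Acadm, the medium-chain enzyme, was at 1.79, 9.32 and 4.54 RPKM across HuR libraries 1 to 3 and at 1.02, 0.0768 and 0.00886 RPKM across IgG libraries 1 to 3. The groups did not overlap, with HuR 1 and IgG 1 closest to each other. Its log2 fold change was 2.66 (SE 0.78, limma adjusted p = 0.0659), and the ratio of terminal to other exons rose by 3.73 (SE 0.92, limma adjusted p = 0.0424). Acads, the short-chain enzyme, was at 9.82, 9.16 and 2.24 RPKM in the HuR pull-downs and 3.67, 0.926 and 0.229 RPKM in the IgG pull-downs, so that IgG 1 exceeded HuR 3. Most of its HuR reads were terminal, at 593, 543 and 137 reads against 0, 4 and 0 on the other exons. IgG 1, 2 and 3 had 94, 12 and 9 terminal reads and 38, 44 and 6 elsewhere, and the ratio rose by 4.44 (SE 0.99, limma adjusted p = 0.0376).

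Acadvl, the very-long-chain enzyme, was at 0.340, 2.69 and 0.303 RPKM across HuR libraries 1 to 3 and 2.30, 1.07 and 2.22 RPKM across IgG libraries 1 to 3. In IgG 3, 171 reads lay on an internal exon of 130 bases, and in HuR 2, 158 reads lay on the first exon. The groups overlapped through HuR 2, and the log2 fold change of -0.82 (SE 0.74) had a limma adjusted p of 0.424. Its terminal exon of 254 bases had at most 5.10 reads in any library and lies wholly within exons of Dvl2 on the other strand. The strand setting of the counting is not given in the sources used here, so reads of the 2 genes cannot be told apart there.

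Electrons from these dehydrogenases pass to the electron transfer flavoprotein, whose subunits are encoded by Etfa and Etfb, and on to its oxidoreductase Etfdh. Etfa had the highest log2 fold change of the members. It was at 18.6, 2.60 and 15.2 RPKM across HuR libraries 1 to 3, against 1.58, 0.377 and 0 RPKM across IgG libraries 1 to 3, with 0.571 RPKM in the Input mean. HuR 2 stood well below the other HuR libraries and still above every IgG library. The gene-level log2 fold change was 3.33 (SE 0.85, limma adjusted p = 0.0566), and it passed at 4.15 (adjusted p = 0.0134) without HuR 2. The terminal exon, 255 bases at chr9:55454508-55454762, had 732, 106 and 635 reads across HuR libraries 1 to 3, against 0, 9 and 0 reads across IgG libraries 1 to 3. The ratio to the other exons rose by 6.03 (SE 1.06, limma adjusted p = 0.0376), the highest of the members.

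The groups of Etfb, its partner subunit, overlapped, with 4.09, 6.23 and 5.90 RPKM across HuR libraries 1 to 3 and 6.77, 2.29 and 4.59 RPKM across IgG libraries 1 to 3. Its log2 fold change of 0.31 turned negative under all 3 scalings. Its terminal exon had 103, 9.85 and 119 reads in the HuR pull-downs and 33.8, 0.85 and 0 reads in the IgG pull-downs, and its ratio passed the test only without HuR 2 (5.80, limma adjusted p = 0.0239). Etfb shares most of its exons with the listed gene Gm45233 on the same strand, so its reads may be split. Etfdh stayed below the filter, at 0.0103, 0.458 and 0.150 RPKM in the HuR pull-downs and 0.510, 0.334 and 0 RPKM in the IgG pull-downs.

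The following steps in the mitochondrion are taken by hydratases, a hydroxyacyl-CoA dehydrogenase and thiolases. Hadha and Hadhb, the subunits of the trifunctional protein that carries out all 3 steps on long chains, had some of the lowest terminal ratios. Hadha was at 1.25, 2.89 and 0.966 RPKM across HuR libraries 1 to 3 and at 1.0, 0.473 and 0.0199 RPKM across IgG libraries 1 to 3. Hadhb was at 1.04, 0.853 and 0.155 RPKM in the HuR pull-downs and 0.571, 0.0783 and 0.0302 RPKM in the IgG pull-downs. Their terminal ratios differed by 0.09 (SE 1.06) and -0.69 (SE 0.92), with limma adjusted p of 0.966 and 0.634. Hadhb shares 99.8% identity over 69.7% of its transcript with the processed pseudogene Gm13910, so its reads are uncertain, and its log2 fold change of 0.68 turned negative under centring and quantile normalization.

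Echs1, the short-chain hydratase, was at 3.41, 1.98 and 2.03 RPKM across HuR libraries 1 to 3, against 0.860, 0.512 and 0.0712 RPKM across IgG libraries 1 to 3. Hadh, the short-chain hydroxyacyl-CoA dehydrogenase, was at 2.56, 4.54 and 4.23 RPKM in the HuR pull-downs and 1.58, 0.105 and 0.474 RPKM in the IgG pull-downs. Neither gene had overlapping groups, and their log2 fold changes of 1.66 and 1.96 had limma adjusted p of 0.122 and 0.102. The terminal exon of Hadh alone rose by 3.83 (SE 1.05, limma adjusted p = 0.0335), while its terminal ratio of 3.86 (SE 1.13) just missed with an adjusted p of 0.0616. Acaa2, the mitochondrial thiolase, was at 1.71, 4.51 and 8.93 RPKM in the HuR pull-downs and 3.08, 2.06 and 0.527 RPKM in the IgG pull-downs. It was among the members with the highest Input level, 5.77 RPKM, and only HuR 3 exceeded that.

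Unsaturated fatty acids need auxiliary isomerases and reductases, and none of the 4 members of this kind passed the adjusted threshold over the gene, in the terminal ratio or on the terminal exon alone. Eci1 was at 1.48, 2.30 and 0.579 RPKM across HuR libraries 1 to 3 and 0.0578, 0.138 and 0.604 RPKM across IgG libraries 1 to 3. Eci2 was at 2.30, 2.33 and 0.419 RPKM in the HuR pull-downs and 0.333, 0.685 and 0.0192 RPKM in the IgG pull-downs. In both, HuR 3 fell within the IgG range. Decr1, the mitochondrial dienoyl-CoA reductase, was at 2.35, 1.76 and 1.79 RPKM in the HuR pull-downs and 0.381, 0.0789 and 2.30 RPKM in the IgG pull-downs, the high IgG value coming from 227 terminal reads in IgG 3. Decr2, its peroxisomal counterpart, was at 4.40, 7.12 and 5.51 RPKM in the HuR pull-downs and 5.49, 1.57 and 1.24 RPKM in the IgG pull-downs. IgG 1 lay within the HuR range, and the log2 fold change of 1.12 turned to -0.26 under TMM-like scaling.

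In peroxisomes, Acox2 opens the oxidation of branched chains and bile acid intermediates, Ehhadh and Hsd17b4 encode the bifunctional enzymes, and Acaa1a and Acaa1b encode thiolases. Hsd17b4 passed the test along the gene and not over the whole gene. Its gene level was 2.04, 0.692 and 4.62 RPKM across HuR libraries 1 to 3 and 3.98, 1.04 and 0.499 RPKM across IgG libraries 1 to 3, a log2 fold change of 0.39 that turned negative under all 3 scalings. Its terminal exon had 144, 17 and 323 reads in the HuR pull-downs against 2, 12 and 0 reads in the IgG pull-downs, while the other exons had 41, 45 and 100 reads against 213, 82 and 49 reads. The terminal ratio rose by 4.14 (SE 1.03, limma adjusted p = 0.0431).

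Acaa1b was the member with the highest level in HuR 1, HuR 2, every IgG library and Input. It was at 23.7, 20.6 and 13.7 RPKM across HuR libraries 1 to 3 and 12.5, 5.91 and 6.12 RPKM across IgG libraries 1 to 3. The groups did not overlap, but the log2 fold change of 1.24 turned to -0.32 under TMM-like scaling. Its terminal exon was at 89.95, 48.3 and 40.1 RPKM in the HuR pull-downs and 9.27, 3.45 and 1.95 RPKM in the IgG pull-downs, and the ratio rose by 3.57 (SE 0.79, limma adjusted p = 0.0376). Of that exon's 391 bases, 224 overlap Dlec1 on the other strand. Acaa1a was at 2.54, 2.32 and 1.24 RPKM in the HuR pull-downs and 3.52, 1.40 and 2.60 RPKM in the IgG pull-downs, and its terminal ratio of 2.21 (SE 0.93) had a limma adjusted p of 0.137. The 2 genes share 96.5% of 1272 coding bases. The stretch of 30 coding bases below, at chr9:119349971-119350000 on the plus strand for Acaa1a and chr9:119148371-119148400 on the minus strand for Acaa1b in GRCm38, shows how little tells their reads apart, with the differing base in capitals.
Acaa1a: gtGtccatgtgcatcgggactgggatggga
Acaa1b: gtAtccatgtgcatcgggactgggatggga
A read from such a stretch may be given to either gene, so their levels are uncertain.

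Acox2 was at 2.77, 3.53 and 1.62 RPKM across HuR libraries 1 to 3, against 0.818, 0.486 and 0.0281 RPKM across IgG libraries 1 to 3, a log2 fold change of 1.78 (SE 0.71, limma adjusted p = 0.106). Its terminal exon had 14, 58 and 98 reads in the HuR pull-downs and none in any IgG library, and rose by 3.53 (SE 0.79, limma adjusted p = 0.0276). This gene differs from the others called, since its terminal exon held only 5.13%, 16.9% and 60.9% of its HuR reads. Ehhadh was at 3.11, 4.95 and 2.29 RPKM in the HuR pull-downs and 2.09, 0.945 and 1.99 RPKM in the IgG pull-downs. Its groups did not overlap, with a narrow gap, and its log2 fold change of 0.85 lay below the median of all genes and turned negative under all 3 scalings.

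Acot1 and Acot2 encode thioesterases that release the fatty acid from its CoA ester. Acot2, the mitochondrial one, was at 0.992, 1.45 and 1.39 RPKM across HuR libraries 1 to 3, against 0.345, 0.205 and 0 RPKM across IgG libraries 1 to 3. The groups did not overlap, and the log2 fold change of 1.40 (SE 0.56) had a limma adjusted p of 0.109. Acot2 met the filter through its HuR libraries alone. Acot1 stayed below the filter, with 0.844 RPKM in HuR 1 and at most 0.0949 RPKM in any other RIP library. The genes share 95.1% identity over 58.0% of the Acot2 transcript, so these low levels are uncertain.

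For ketone bodies, Acat1, the mitochondrial acetoacetyl-CoA thiolase, was at 3.85, 4.21 and 3.07 RPKM across HuR libraries 1 to 3, against 0.336, 0.0998 and 0.0646 RPKM across IgG libraries 1 to 3. Every HuR library was above the Input mean of 0.771 RPKM and every IgG library below it. The log2 fold change was 2.67 (SE 0.69, limma adjusted p = 0.0566), and the gene met the filter through its HuR libraries alone. Its other exons had 34, 259 and 37 reads in HuR RIP and 4, 10 and 6 in IgG RIP, with most of those of HuR 2 on 2 exons, and its terminal ratio of 1.20 (SE 1.0) had a limma adjusted p of 0.434. Bdh1, the 3-hydroxybutyrate dehydrogenase, was at 1.49, 7.28 and 4.28 RPKM in the HuR pull-downs and 0.706, 0.258 and 0.707 RPKM in the IgG pull-downs. Its groups did not overlap, and its log2 fold change of 2.02 (SE 0.76) had a limma adjusted p of 0.0984.

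Set beside the lysate, the members were above the Input mean in HuR RIP more often than in IgG RIP. Of the 29 tested members, 22 were above it in all 3 HuR libraries, beside 68.9% of all tested genes. In all 3 IgG libraries 0 of the 29 were above it, beside 20.7% of all tested genes. None was below Input in all HuR libraries, beside 3.90%. Input has no replicates here, so these are counts without a test. Once the libraries and Input had been centred at their medians, 7 members were above it in all HuR libraries. The share of all tested genes after centring is not given here, so that count has no background beside it. In the Input mean the terminal exon was the exon with most reads in 16 of 29 members, beside 66.0% of all tested genes. In all 3 HuR libraries it was so in 15 of 29, beside 56.5%, and in all 3 IgG libraries in 4 of 29, beside 22.4%. It was so in 21, 16 and 26 members across HuR libraries 1 to 3, beside 76.1%, 68.4% and 86.1% of genes with reads. In IgG 1 and IgG 2 the counts were 17 and 11, beside 63.7% and 54.1%. IgG 3 had 7 of 25 members with reads, beside 46.4%. HuR 2 thus matched Input and lay below IgG 1 on this count.

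**Figure D5:**
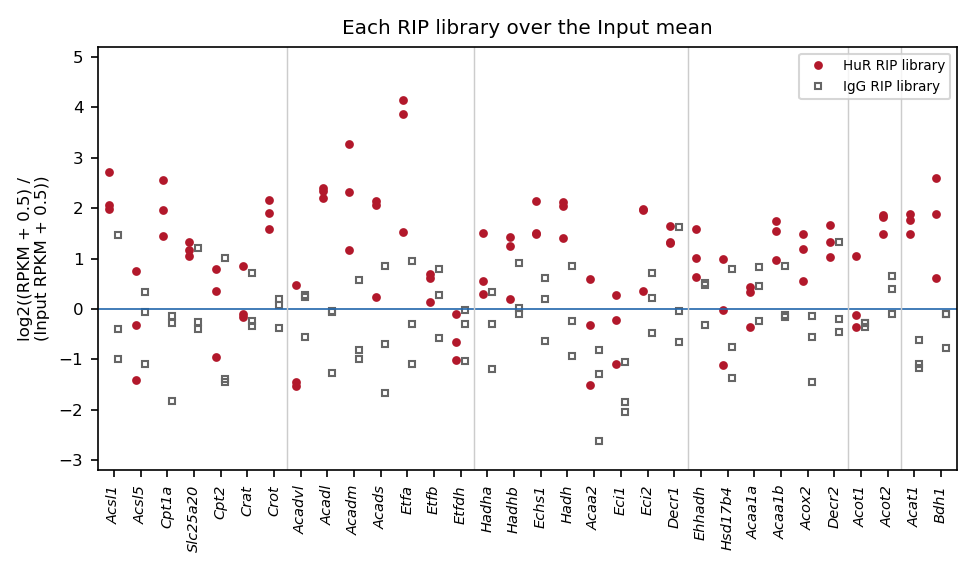
log2 ratio of each RIP library over the Input mean, with 0.5 RPKM added to both, for the 32 members ordered by role; filled circles are HuR RIP libraries, open squares IgG RIP libraries, and the horizontal line at 0 is Input. The 3 HuR libraries of 22 tested members lie above the line, and for no member do all 3 IgG libraries.

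The authors' deposited table gives a p-value per exon for HuR against IgG, by a test not given in the sources used here, for 483 of the 632 distinct exons of the members. A p under 0.05 was given to 16 of these (3.31%) in the authors' deposited table, beside 2.35% of all exons with a p. Of the 16 in the authors' deposited table, 8 were higher in HuR RIP. These were 1.66% of the 483 exons, below the 2.09% of all exons with a p. They were the terminal exons of Acadl, Acat1, Cpt1a, Acot2, Acaa1b, Etfa, Crot and Acadm. The other 8 in the authors' deposited table were lower in HuR RIP and were not terminal. They were also 1.66% of the 483, beside 0.261% of all exons with a p. Those 8 include overlapping versions of 1 exon, listed as a pair each in Echs1, Acaa1a and Acaa1b. The smallest deposited q-value among the members was 0.541 in the authors' deposited table, and 0.110 was the smallest over the whole table.

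Other genes of these pathways were taken from 4 lists, and 0 of their tested members passed limma at the gene level. Of 18 tested genes among 25 further peroxisomal genes, the median log2 fold change was 1.47 and 1 passed the terminal ratio test, which called 6.24% of all tested genes higher. Phyh, the phytanoyl-CoA hydroxylase of branched-chain breakdown, was at 54.2, 21.4 and 80.4 RPKM across HuR libraries 1 to 3, against 7.56, 2.0 and 1.80 RPKM across IgG libraries 1 to 3, a log2 fold change of 3.68 (limma adjusted p = 0.0566). Pecr, a peroxisomal enoyl-CoA reductase, had a log2 fold change of 2.77 and Acot12, an acetyl-CoA thioesterase, one of 1.53. Of 8 tested genes among 13 of fatty acid uptake, binding and export, the median was 1.66 and 1 passed the terminal ratio test, with Acbd5 at 2.35, Lipa at 2.08 and Dbi at 1.96. Of 21 tested genes among 38 of mitochondrial oxidation, the median was 0.80, below that of all genes, and 2 passed the terminal ratio test, with Acsl4 at 2.23, Acsf2 at 1.90 and Ivd at 1.61. Of 13 tested regulators among 20, the median was 0.97 and 0 passed the terminal ratio test. Lpin1, Hnf4a and Ncor1 were at 1.82, 2.02 and 1.46. All these gene-level folds stand beside the median of 0.92 over all tested genes.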

How the data were processed

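RNA from HuR RIP, IgG RIP and Input of mouse liver was measured on Ion libraries of total RNA. The table deposited by the authors holds RPKM per exon for each RIP library, the mean Input RPKM, log2 ratios of each library to Input, and a p-value and q-value per exon. The labels' processing notes name Bowtie2, featureCounts and mm10, without versions. The decimal mark, missing from every number of 1 or more, was restored from the digits so that all 6 ratios matched on all 138826 distinct lines of values, 1 of which had more than 1 reading. RPKM times exon length was added up for each gene and divided by its merged exon length. Library sizes came from the step between values, and with them 84.9% to 89.0% of values came out whole within a tolerance of 0.05. As reads are split between exons, no count model was fitted. Positions, exons and 3′ UTRs (1 chosen transcript per gene) came from GENCODE M21, which held 99.3% of the distinct exons. limma 3.58.1 (R 4.3.3, trend and robust) compared HuR RIP with IgG RIP. The same script was also run on simulated data with noise set below the real spread, which does not show its error at the real spread. Look-alike transcripts were sought with blastn 2.17.0, and Python 3.11.15, numpy 2.4.6, pandas 2.3.3 and matplotlib 3.10.9 were used elsewhere. Named were all 32 members and up to 3 genes of each of 4 pathway lists with the smallest p, and another list is not reported here. The members, lists and tests were chosen with earlier results of these data known. Alternatives were other scalings, filters, pseudocounts, weights, left-out libraries and the replicate number as a block. Each pull-down used 1 liver, so p-values measure the spread between these libraries. Input depth is unknown.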

Additional observations from a re-analysis of the deposited data

How the results depend on the processing

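Beside the 44 genes past the threshold between HuR RIP and IgG RIP, limma called 392 with TMM-like scaling, 19 with libraries centred at their medians, 9 with quantile normalization, 166 with a filter at 1 RPKM, 4 with a pseudocount of 1, 5 without a trend, 2380 with sample quality weights and 736 when only protein-coding genes were fitted. It called 0 with no filter, with each distinct exon counted once, without the pair HuR 3 and IgG 1, with the terminal exon left out and with the terminal exon alone and centred, and 646 with the terminal exon alone. Members past the threshold, 0 before, numbered 5 with a filter at 1 RPKM, 16 with weights, 8 among protein-coding genes and 12 with the terminal exon alone. Leaving out single libraries gave 0 to 741 genes and 0 to 7 members, with 1 member without HuR 2 and 7 without IgG 1. The members' median of 1.28 became 0.40 with TMM-like scaling, 0.17 centred, 0.31 with quantile normalization, 2.10 with a pseudocount of 0.1, 1.78 without HuR 3 and IgG 1, 2.41 on the terminal exon alone, 0.24 without the terminal exon and 0.50 on the terminal exon alone and centred, and spanned 1.17 to 1.57 with single libraries left out. In the terminal ratio test, 227 genes and 7 members became 1 gene and 0 members with a pseudocount of 0.1, at a members' median of 2.71 in place of 1.91, and 370 genes with a filter at 1 RPKM. With single libraries left out they spanned 0 to 535 genes and 0 to 9 members, the upper values without HuR 2, and the median spanned 1.49 to 2.46. Centring cut the members above Input in all HuR libraries, 22 before, to 7, a count given without the share of all tested genes. The 3 settings that split off the terminal exon were chosen after seeing the data. Of 631 alternative values of single members at the gene level 535 kept their direction and side of the threshold, 49 passed it and 47 changed sign, and in the terminal ratio test 229, 5 and 9 of 285 did so, with 42 lost calls. The cause of these changes was not tested, beyond fewer samples or genes where a setting removes them.

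Signs changed in the following members, on the log2 scale. With TMM-like scaling these were Etfb -1.14, Decr2 -0.26, Acaa2 -0.12, Acaa1b -0.32, Ehhadh -0.49 and Hsd17b4 -0.71. With libraries centred they were Cpt2 -0.43, Hadhb -0.42, Etfb -0.79, Ehhadh -0.25, Hsd17b4 -0.71 and Slc25a20 -0.10, and with quantile normalization Cpt2 -0.22, Hadhb -0.23, Etfb -0.64, Ehhadh -0.18 and Hsd17b4 -0.69. Acaa1a was at 0.11 and Acsl5 at 0.48 with weights, Acaa1a at 0.24 with distinct exons, and Acaa1a at 0.27 and Acsl5 at 0.25 without HuR 3 and IgG 1. With single libraries left out, Acsl5 spanned -0.59 to 0.49, Acaa1a -0.52 to 0.029, Hsd17b4 -0.13 to 1.01 and Etfb -0.063 to 0.63. On the terminal exon alone Acadvl was at 0.49 and Acaa1a at 1.52. Without the terminal exon, Acads was at -1.25, Cpt1a -0.44, Cpt2 -0.83, Hadh -0.026, Etfb -1.35, Decr2 -0.14, Ehhadh -0.44, Hsd17b4 -0.70 and Slc25a20 -0.17. On the terminal exon alone and centred, Hadha was at -0.84, Hadhb -1.85, Decr1 -0.72, Decr2 -0.49, Ehhadh -0.64 and Acot2 -0.17. In the terminal ratio, with single libraries left out, Hadha spanned -0.74 to 1.30, Eci2 -0.31 to 2.08, Decr1 -0.80 to 1.14, Bdh1 -0.58 to 1.77 and Acsl5 -0.40 to 0.020.

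With the replicate block, limma called 0 genes and 0 members at the gene level, and 277 genes and 8 members in the terminal ratio test. The deviations of same-numbered libraries correlated at 0.138, 0.117 and 0.086, and each library correlated best with its own number, a hint from the data and not from the design. As 1 pair was under 0.1 and no label ties the numbers together, the libraries were not treated as paired. The thin coverage limits every value, as a member under the filter cannot be called absent from either pull-down. Input, without library sizes, gives no error.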
